A study of Mus musculus with 6 samples.

Results

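The genes described here encode molecular chaperones and the sensors and transcription factors of the heat shock and unfolded protein responses. They were taken by name: every record of the count table whose symbol begins with Hspa, Hspb, Hspd1, Hspe1, Hsp90, Hsph1, Dnaja, Dnajb, Dnajc or Pdia, together with Hsf1, Atf4, Atf6, Ddit3, Xbp1, Ern1, Eif2ak3, Calr and Canx. The rule found 90 of 21959 records, which carry 89 names because Ddit3 is listed under 2 identifiers. It uses names only, but it was chosen with earlier results of these data known. Of these, 74 had enough counts to be tested.

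RNA was measured in MPC, a mouse gastric adenocarcinoma line, and in MPC-PTX, the paclitaxel (PTX)-resistant line raised from it, in 3 libraries per line (the study also calls the lines MTC and MTC-R). Both lines carry the genotype label CDH1-/-;Trp53-/- and descend from gastric organoids of a Mist1-CreER mouse with both Trp53 and Cdh1 floxed, which had grown as a subcutaneous tumour in a nude mouse. MPC-PTX had received over 30 cycles of PTX, and each line had passed through selection of a single clone, so that a difference between the lines is also a difference between 2 clones. No label says whether the 3 replicates were separate cultures, and the p-values therefore measure only the spread between these libraries, which may be technical.

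Chaperones bind proteins that are not yet folded. In the cytosol, HSP70 proteins do this with J-domain partners that deliver clients and HSP110 proteins that release the nucleotide, mitochondria have an HSP70 of their own, HSP90 takes over late folding steps, and HSF1 raises their transcription when proteins are damaged. In the endoplasmic reticulum (ER), BiP, the HSP90 protein GRP94, the disulfide isomerases and the lectins calnexin and calreticulin fold secreted and membrane proteins, and the sensors ATF6, IRE1 and PERK start the unfolded protein response when that system is overloaded. Secretory epithelia such as the gastric mucosa carry a large ER folding load.

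Cdh1 had 136, 132 and 135 CPM in MPC and 131, 136 and 132 CPM in MPC-PTX, and Trp53 had 5.21, 3.25 and 5.77 CPM and 6.07, 5.86 and 6.59 CPM. Both genes thus gave reads in lines labelled as lacking them, and a count per gene does not show whether the floxed exons are missing. For MPC, the study reported a deleted Cdh1 exon by Sanger sequencing and no E-cadherin or p53 protein by immunohistochemistry. It also reported the loss by western blotting, and no effect of Nutlin-3, which blocks p53 degradation, on the viability of these cells. Library totals ranged from 16574580 to 23148182 counts, and all 6 libraries carry the same batch number. Of 10 markers of gastric epithelium and carcinoma, 7 were expressed enough to be tested, with a summed level of 8026 to 9238 CPM (counts scaled to a common library size) in MPC and 4501 to 4629 CPM in MPC-PTX, led by Krt19, while Tff1 had no count in any library. The summed fibroblast markers (8.71 to 10.9 CPM) and endothelial markers (5.62 to 7.88 CPM) stayed low in every library. Leukocyte markers summed to 317 to 355 CPM in MPC and 269 to 276 CPM in MPC-PTX, led by Cd14. These markers' part in the results was not tested. MPC replicate 3 stood apart from its group. Its deviation from the other MPC replicates had a Spearman correlation of -0.59 with GC content across 11776 genes of this 1 library. With transcript length the correlation was 0.42. The variation between libraries, which edgeR calls biological, was put at 17.9% for MPC and 3.01% for MPC-PTX. The test fits a common spread per gene for both lines, so its p-values take no account of this difference. The results are therefore given with MPC replicate 3 and, where it matters, without it.

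A smaller share of the chaperone genes than of all genes passed the test. With an adjusted p below 0.05, 8 of the 74 tested members were higher in MPC-PTX and 6 were lower, together 18.9%, where 29.7% of all 11795 tested genes passed (14.1% higher and 15.6% lower). The higher members were Dnajc21, Dnajc25, Hspa1b, Hspa9, Hspd1, Hsph1, Dnajc18 and Dnaja2, and the lower ones were Hspa8, Pdia6, Dnajc14, Dnajb9, Dnajb12 and Dnajc5. Dnajc25, Dnajc18, Dnaja2, Dnajc14, Dnajb12 and Dnajc5 are not among the core genes that were to be described whatever they showed, and they were singled out once their values had been seen. In bulk RNA, a lower level in every cell and fewer cells that express a gene cannot be told apart. The median log2 fold change of the members (MPC-PTX over MPC) was 0.09, beside 0.04 over all genes, and the median of its size was 0.21, beside 0.24. No called member had a log2 fold change beyond 1 in either direction. The rule in the study's methods, a log2 fold change beyond 1 with an unadjusted p below 0.05, took 1 member (Hspb1, lower) and no higher one, against 8.11% of all genes (3.77% higher and 4.34% lower). The groups did not overlap for 31 members (41.9%), 18 of them higher and 13 lower in MPC-PTX, against 46.9% of all genes (24.2% and 22.7%). An unadjusted p below 0.05 was seen for 28 members (37.8%), against 41.0% of all genes.

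**Figure D1:**
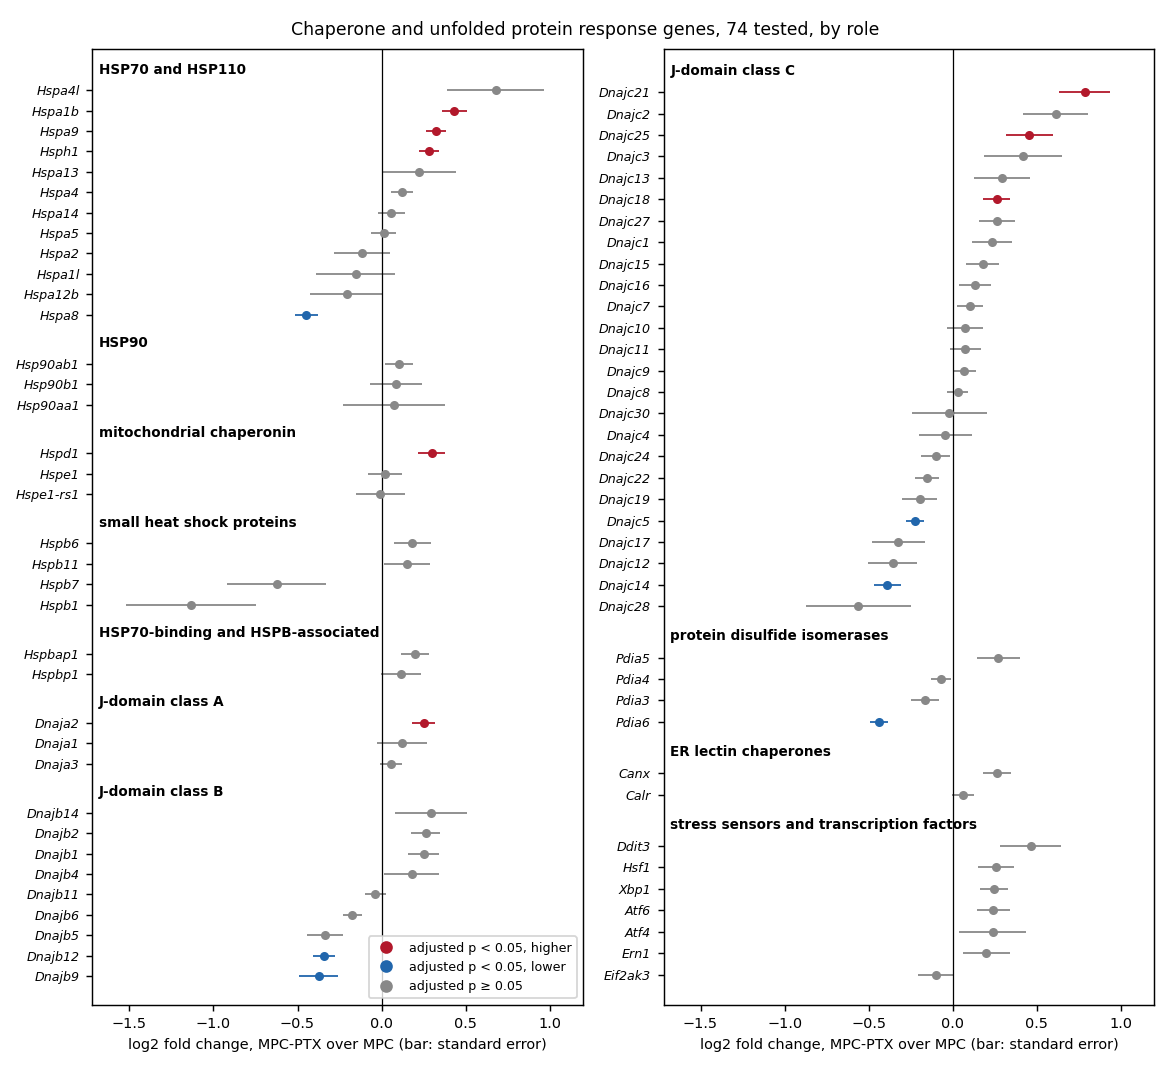
The log2 fold change (MPC-PTX over MPC) of each of the 74 tested members is plotted by role, with its standard error as a bar, 3 libraries per line. Red and blue points mark the 8 higher and 6 lower members with an adjusted p below 0.05; within the HSP70 group Hspa8 is the lower call and Hspa1b, Hspa9 and Hsph1 are the higher ones.

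Taken as a share of each library, the 90 records held 1.86 to 1.89% of all counts in MPC and 1.95 to 1.96% in MPC-PTX. The HSP70 and HSP110 genes summed to 5590 to 5699 CPM in MPC and 5106 to 5218 CPM in MPC-PTX, lower in every MPC-PTX library. Without Hspa8, described next, the rest of the group summed to 2401, 2414 and 2630.02 CPM in MPC and 2868, 2808 and 2809 CPM in MPC-PTX, higher in every MPC-PTX library. The HSP90 genes summed to 5177 to 5591 CPM and 5742 to 5785 CPM, the lectin chaperones to 2187 to 2244 CPM and 2402 to 2427 CPM, and the disulfide isomerases to 1512 to 1696 CPM and 1385 to 1403 CPM. Those ranges do not overlap either. The sums of J-domain class A, the mitochondrial chaperonin and the sensors and transcription factors also lay apart, higher in MPC-PTX. Overlap was seen for J-domain class B (658 to 704 CPM in MPC and 676 to 684 CPM in MPC-PTX) and class C (1243 to 1396 CPM and 1344 to 1382 CPM). The small heat shock proteins overlapped too, as did Hspbp1 and Hspbap1 together. The smallest exact permutation p that this design allows for one value is 0.1, and no test was run on the sums. A few genes set the largest of these sums. Per kilobase of transcript, the most abundant members in MPC were Hsp90ab1 (1806 CPM per kb in MPC and 1938 in MPC-PTX), Hspa8 (1432 and 1049), Calr (683 and 713), Pdia3 (321 and 286), Hspd1 (289 and 355), Hspa5 (283 and 286), Hspe1 (263 and 267), Hspa9 (234 and 293) and Pdia6 (227 and 167). Neighbours from Pdia3 to Pdia6 in this order lie close together, and their order differed between the lines. In MPC-PTX, Canx (213 CPM per kb) and Hsp90aa1 (194) stood above Pdia6.

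**Figure D2:**
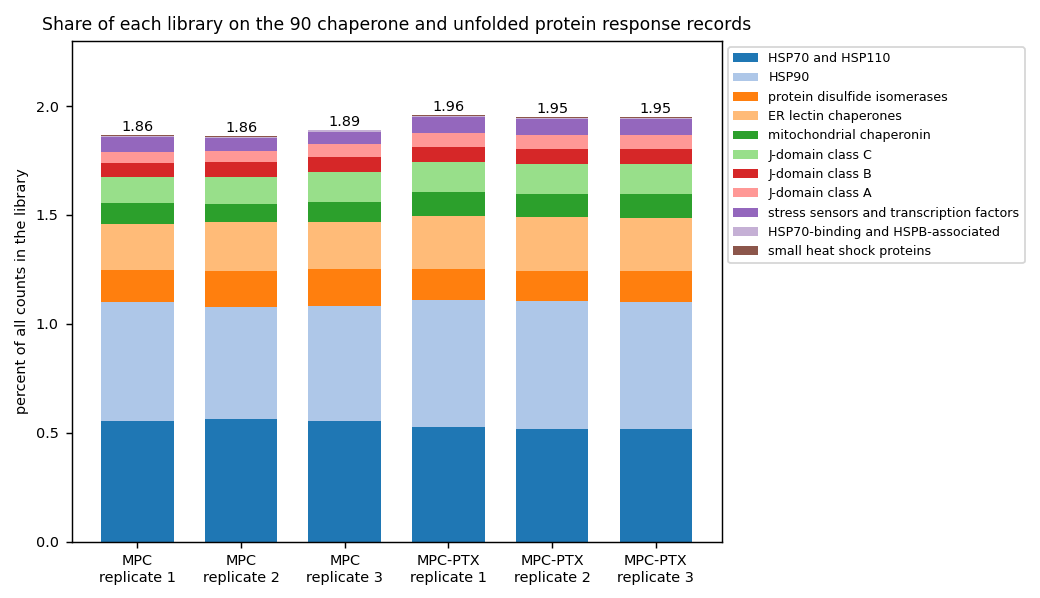
Stacked bars show the percent of all counts in each of the 6 libraries that fell on the 90 chaperone and unfolded protein response records, split by role. The HSP70 and HSP90 genes fill more than any other role in every library, and the whole bar stands between 1.86 and 1.96%.

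Hspa8, the constitutive cytosolic HSP70 (HSC70), was the most abundant HSP70 and fell in MPC-PTX. Its level was 3298, 3221 and 2960.45 CPM in the MPC libraries and 2349.6, 2298 and 2299 CPM in the MPC-PTX libraries. Every MPC-PTX library lay below every MPC library. The log2 fold change was -0.45 (standard error 0.07, adjusted p = 0.00313), and the level fell by 26.7%. Hspa8 lies at chr9:40800984-40810087 of GRCm38, and 38.6% of the 50-base words of its transcripts also occur in other records, led by Gm15459, so part of its count may belong elsewhere.

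The genes beside Hspa8 showed a larger difference, which was looked at after their values had been seen. Clmp (chr9:40685962-40785319) ends 15.7 kb before Hspa8 and encodes a cell adhesion molecule. It had 19, 8 and 18 counts in MPC and 0 in each MPC-PTX library. Gramd1b (chr9:40293233-40531383), which encodes a cholesterol transfer protein, had 148, 222 and 250 counts in MPC and 1, 0 and 1 in MPC-PTX (adjusted p = 3.47e-05). Zfp202 (chr9:40192316-40213604), a zinc finger gene, had 10, 11 and 33 counts in MPC and 0 in each MPC-PTX library (adjusted p = 0.0151). On the other side, Ubash3b (chr9:41011098-41161697), which starts 201 kb after Hspa8, had 128, 107 and 126 counts in MPC and 215, 179 and 148 in MPC-PTX (log2 fold change 0.50, adjusted p = 0.0224). The 3 genes at or near 0 in MPC-PTX lie on one side of Hspa8, at 15.7 to 587.4 kb from it, and the other records between Zfp202 and Ubash3b had at most 3 counts summed over a line. A count of 0 in a library allows up to 3 counts, by counting error only, and whether the fall of Hspa8 is tied to this stretch was not tested.

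Hspa1b, one of the stress-inducible HSP70 genes, moved the other way. It stood at 65.6, 64.7 and 58.3 CPM in MPC and at 87.7, 83.3 and 83.4 CPM in MPC-PTX, with no overlap. The log2 fold change was 0.43 (standard error 0.07, adjusted p = 0.00493). Hspa1b (chr17:34956436-34959238) and Hspa1a (chr17:34969190-34972156) lie side by side and share most of their sequence: 62.3% of the 50-base words of Hspa1b and 60.4% of those of Hspa1a also occur elsewhere in the transcriptome, chiefly in each other. Hspa1a had 3, 3 and 1 counts in MPC and 7, 5 and 5 in MPC-PTX and was not tested. Reads of the 2 genes could have been split unevenly, and their levels cannot be told apart with certainty.

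Hspa9, the HSP70 of the mitochondrial matrix (mortalin), rose. Its levels were 740, 682 and 715 CPM in MPC and 911, 894 and 875 CPM in MPC-PTX, which do not overlap. The change came to 0.33 on the log2 scale (standard error 0.06, adjusted p = 0.00654). Hsph1, the HSP110 exchange factor that works with HSP70 in the cytosol, stood at 304, 279 and 299 CPM in MPC and 367, 352 and 352 CPM in MPC-PTX. Its log2 fold change was 0.28 (standard error 0.06, adjusted p = 0.0114), a call lost without MPC replicate 2 or any 1 MPC-PTX library (adjusted p up to 0.0689). The groups did not overlap for Hsph1 either. Hspa4, another HSP110 gene, had 340, 330.004 and 373 CPM against 382, 369 and 384 CPM, and its groups overlapped (log2 fold change 0.12, adjusted p = 0.209).

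Hspa4l, the third HSP110 gene, varied widely among the MPC libraries. It had 35.5, 44.3 and 82.1 CPM in MPC and 81.7, 89.2 and 88.4 CPM in MPC-PTX, so that MPC replicate 3 lay among the MPC-PTX libraries. The log2 fold change was 0.68 (standard error 0.29, adjusted p = 0.127) with all libraries and 1.06 (adjusted p = 2.63e-05) without MPC replicate 3. With all 6 libraries it also passed with the GC content and length correction (0.55, adjusted p = 0.00197) and with DESeq2 (0.65, adjusted p = 0.0369). Hspa5, which encodes the ER chaperone BiP, was 813, 891 and 964 CPM in MPC and 912, 894 and 887 CPM in MPC-PTX. The MPC-PTX libraries lay inside the MPC range, and the log2 fold change was 0.01 (standard error 0.08, adjusted p = 0.909). The remaining tested members of this group (Hspa2, Hspa13, Hspa14, Hspa1l and Hspa12b) had log2 fold changes from -0.21 to 0.22, none of which passed the test.

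Since Hspa8 fell while other members of the HSP70 system rose, the counts were also read as ratios within each library, which do not depend on how libraries are scaled (these ratios were chosen after the counts had been seen). Hspa1b reached 1.99, 2.01 and 1.97% of the Hspa8 counts in MPC and 3.73, 3.63 and 3.63% in MPC-PTX. Hspa9 stood at 22.4, 21.2 and 24.2% of Hspa8 in MPC and at 38.8, 38.9 and 38.05% in MPC-PTX. Hsph1 stood at 9.21, 8.65 and 10.1% in MPC and at 15.6, 15.3 and 15.3% in MPC-PTX, and Dnajb1, a J-domain partner of cytosolic HSP70, at 3.74, 3.49 and 3.3% and at 5.84, 5.75 and 5.51%. The ratio of Hspa5 to Hspa8 was 24.6, 27.6 and 32.6% in MPC and 38.8, 38.9 and 38.6% in MPC-PTX. All 5 ratios were higher in every MPC-PTX library than in any MPC library. They share Hspa8 as denominator, so its fall alone raises each of them, and they are not 5 separate results. Hspa5 and Dnajb1 did not themselves pass in the uncorrected fit with all libraries (adjusted p = 0.909 and 0.084).

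**Figure D3:**
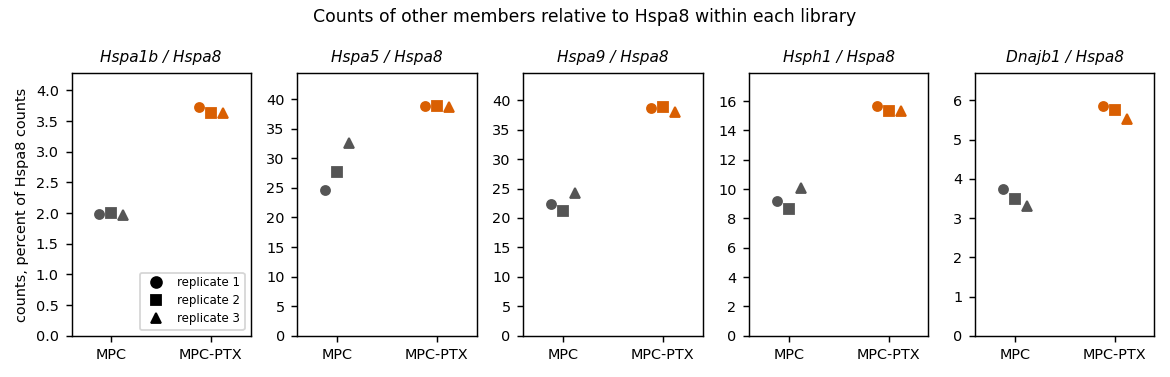
Each panel plots the counts of one chaperone gene as a percent of the Hspa8 counts of the same library, for 3 MPC (grey) and 3 MPC-PTX (orange) libraries, with the replicate given by the marker. The groups are apart in all 5 panels, for example 1.97 to 2.01% against 3.63 to 3.73% for Hspa1b. The fall of Hspa8, the shared denominator, raises every ratio.

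None of the 3 HSP90 genes passed the test. Hsp90ab1, the constitutive cytosolic HSP90 and the most abundant member, stood at 4948, 4550 and 4152 CPM in MPC and 4941, 4881 and 4829 CPM in MPC-PTX, with overlap (log2 fold change 0.10, adjusted p = 0.388). Hsp90b1, which encodes GRP94, stood at 233, 223 and 336 CPM against 274, 283 and 281 CPM (log2 fold change 0.08, adjusted p = 0.718). Hsp90aa1, the inducible cytosolic HSP90, had 411, 404 and 879 CPM in MPC and 531, 621 and 632 CPM in MPC-PTX. Its counts were 7732, 7839 and 18297 in MPC, so MPC replicate 3 held more than any other library, and the log2 fold change was 0.07 (standard error 0.30, adjusted p = 0.873). Without that library Hsp90aa1 had a log2 fold change of 0.49 (adjusted p = 0.000422) and Hsp90b1 one of 0.24, (adjusted p = 0.00119), while Hsp90ab1 changed sign to -0.01. Without MPC replicate 1 or 2 in its place, the Hsp90aa1 value turned to -0.11 or -0.12. Of the words of Hsp90aa1, 47.5% occur in other records, led by Gm12346.

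The mitochondrial chaperonin genes Hspd1 and Hspe1, which encode the HSP60 ring and its HSP10 lid, sit head to head on chromosome 1. Hspd1 (chr1:55077835-55088243) rose, with 730, 626 and 746 CPM in MPC and 874, 853 and 857 CPM in MPC-PTX, which do not overlap. Its log2 fold change was 0.30 (standard error 0.08, adjusted p = 0.0273). Hspe1 (chr1:55088132-55091307) had 236, 196 and 180.13 CPM in MPC and 217, 199 and 204 CPM in MPC-PTX, with a log2 fold change of 0.02 (adjusted p = 0.901). The ratio of Hspd1 to Hspe1 counts was 310%, 320% and 414% in MPC and 402%, 429% and 420% in MPC-PTX, so MPC replicate 3 overlapped the other line. Of the words of Hspd1, 39.7% occur in other genes. The call of Hspd1 was lost when MPC replicate 2 or any MPC-PTX library was left out, with log2 fold changes from 0.22 to 0.33 over the 6 libraries left out in turn.

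The stretch between the RefSeq starts of these 2 genes is shown because it stands upstream of both. In GENCODE the 2 genes overlap there, and the stretch lies in an annotated exon. The heat shock element, to which HSF1 binds, was searched as GAA, TTC and GAA with 2 bases of any kind between them, on both strands of the 250 bases before each RefSeq start (GRCm38.p6). It was found in 3 of 59 tested members with a RefSeq promoter (5.08%) and in 0.436% of the 9414 tested genes with one, and in 0.466% of all 32851 promoter entries. The members were Hspd1, Hspe1 and Dnajb6, and the first 2 share the same pair of overlapping matches, 1 on each strand. The sequence below is the plus strand at chr1:55088059-55088081, with the fixed letters of the match in capitals.
Hspd1 and Hspe1: ttctaGAAccTTCcgGAAggccc
Hspd1 rose and Hspe1, which has the same element upstream of its RefSeq start, did not pass the test. Dnajb6, a J-domain protein that holds back aggregation, had a log2 fold change of -0.17 (adjusted p = 0.0523). The matches are letters in a window, and binding was not measured.

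The small heat shock proteins, which hold unfolded proteins without using ATP, gave no call, and most were at low counts. Hspb1 (HSP27) had 13, 15 and 16 counts in MPC and 11, 4 and 6 in MPC-PTX, the largest fall of any tested member (log2 fold change -1.13, standard error 0.39), but its adjusted p was 0.0643 and 48.8% of its words occur in other genes. Hspb8 had 3, 6 and 7 counts against 8, 2 and 3 and was not tested, and neither were Hspb2, Hspb3 and Hspb9. Hspb6, with 227 to 379 counts per library, and Hspb11, with 159 to 247, were the better measured. Genes were placed in this group by symbol alone, and whether each, Hspb11 included, acts as such a chaperone was not examined. Together with Hspb7 they had log2 fold changes from -0.62 to 0.18 and did not pass.

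J-domain proteins, which bring clients to HSP70 and switch on its ATPase, are the largest family here, with 37 tested members. Of these, 4 were higher and 4 lower. Dnajc21, which acts in the assembly of the large ribosomal subunit, rose more than any other member that passed the test. It had 28.5, 21.5 and 33.1 CPM in MPC and 45.1, 49.2 and 49.1 CPM in MPC-PTX, and lies at chr15:10446756-10470516. The change came to 0.79 on the log2 scale (standard error 0.15, adjusted p = 0.00821). Dnajc2, a ribosome-bound J-domain protein that receives new chains, had 71.1, 68.1 and 113 CPM in MPC and 121, 128 and 137 CPM in MPC-PTX (it was singled out after its values had been seen). The groups did not overlap, yet its log2 fold change of 0.61 (standard error 0.19) had an adjusted p of 0.0537. Without MPC replicate 3 it was 0.83 (adjusted p = 7.94e-06). Dnajc2 lies at chr5:21757267-21785251, where all 11 tested genes within 1 Mb had positive log2 fold changes, 8 of them with an adjusted p below 0.05, and their median was 0.74. The same median was 0.16 around Dnajc21, 0.24 around Dnajc25, -0.05 around Hspa1b and 0.09 around Hspa9. Around Hspd1 it was 0.08, around Hsph1 0.35, around Dnajc18 -0.05 and around Dnaja2 0.23. For the lower members it was -7.21 (Hspa8, 3 genes), -0.17 (Pdia6), -0.19 (Dnajc14), -0.43 (Dnajb9, 3 genes), -0.22 (Dnajb12) and -0.02 (Dnajc5). The part of each region in these calls was not tested.

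Among the class A members, Dnaja2, a cytosolic HSP70 partner, rose from 318, 276 and 304 CPM to 356, 353 and 361 CPM (log2 fold change 0.25, adjusted p = 0.0291). Dnaja1, its close relative, had 136, 148 and 205 CPM against 174, 178 and 181 CPM (log2 fold change 0.12, adjusted p = 0.568). Its MPC replicate 3 again lay highest. Dnajb1, the heat-inducible partner of HSP70, had 123, 112 and 97.7 CPM against 137, 132 and 127 CPM. These groups did not overlap, and the log2 fold change of 0.25 had an adjusted p of 0.084.

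In class B, 2 members fell. Dnajb9 (ERdj4), which helps BiP restrain IRE1, had 30.2, 32.2 and 39.1 CPM in MPC and 24.6, 26.9 and 26.9 CPM in MPC-PTX, so that it fell by 0.37 on the log2 scale (standard error 0.11, adjusted p = 0.0448). The call was lost with library size as the only scaling and without MPC replicate 2 or any 1 MPC-PTX library, where the adjusted p ran from 0.0658 to 0.165. Dnajb12, a J-domain protein anchored in the ER membrane, fell from 77.6, 80.01 and 74.5 CPM to 62.5, 61.04 and 59.3 CPM (log2 fold change -0.34, adjusted p = 0.00809). Dnajb11 (ERdj3), a partner of BiP in the ER lumen, stood at 126, 138 and 130.5 CPM against 131, 128 and 125 CPM and did not pass (log2 fold change -0.04, adjusted p = 0.692).

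Class C held 3 higher and 2 lower members among 25 tested. Dnajc25 had 7.07, 8.76 and 9.32 CPM in MPC and 12.1, 10.3 and 12.2 CPM in MPC-PTX (log2 fold change 0.46, adjusted p = 0.046), and it shares exons on the same strand with the record Gm20503. Dnajc18, another ER membrane J-domain protein, had 29.6, 31.4 and 33.4 CPM against 36.9, 37.8 and 38.6 CPM (log2 fold change 0.26, adjusted p = 0.0435). Dnajc14, which also sits in the ER membrane and overlaps Ormdl2 on the opposite strand, had 72.4, 79.4 and 82.4 CPM against 59.2, 56.9 and 62.7 CPM (log2 fold change -0.39, adjusted p = 0.0099). Dnajc5, the cysteine string protein of vesicles, had 267, 262 and 276 CPM against 229, 228 and 232 CPM (log2 fold change -0.22, adjusted p = 0.0183). Dnajc3 (p58IPK), which acts in the ER and restrains PERK, had 39.4, 48.6 and 77.2 CPM in MPC against 71.8, 73.8 and 75.3 CPM in MPC-PTX. It did not pass in the uncorrected fit with all libraries (log2 fold change 0.42, adjusted p = 0.221) but did without MPC replicate 3 (0.69, adjusted p = 0.000217) and, with all libraries, after the GC content and length correction (0.30, adjusted p = 0.0184). Several of these J-domain calls were fragile. Dnajc18 kept its call in 2 of the 14 other settings, Dnajc25 in 5 and Dnaja2 in 7, and all 3 lost it without MPC replicate 2 or any 1 MPC-PTX library. The GC content and length correction also ended the calls of Dnaja2 (0.15, adjusted p = 0.354) and Dnajc18 (0.14, adjusted p = 0.159). Dnajc5 lost it without any 1 MPC-PTX library, Dnajc14 without MPC-PTX replicate 1 or 2, and Dnajb12 without MPC-PTX replicate 2 or 3 (adjusted p up to 0.103, 0.0617 and 0.0554).

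**Figure D4:**
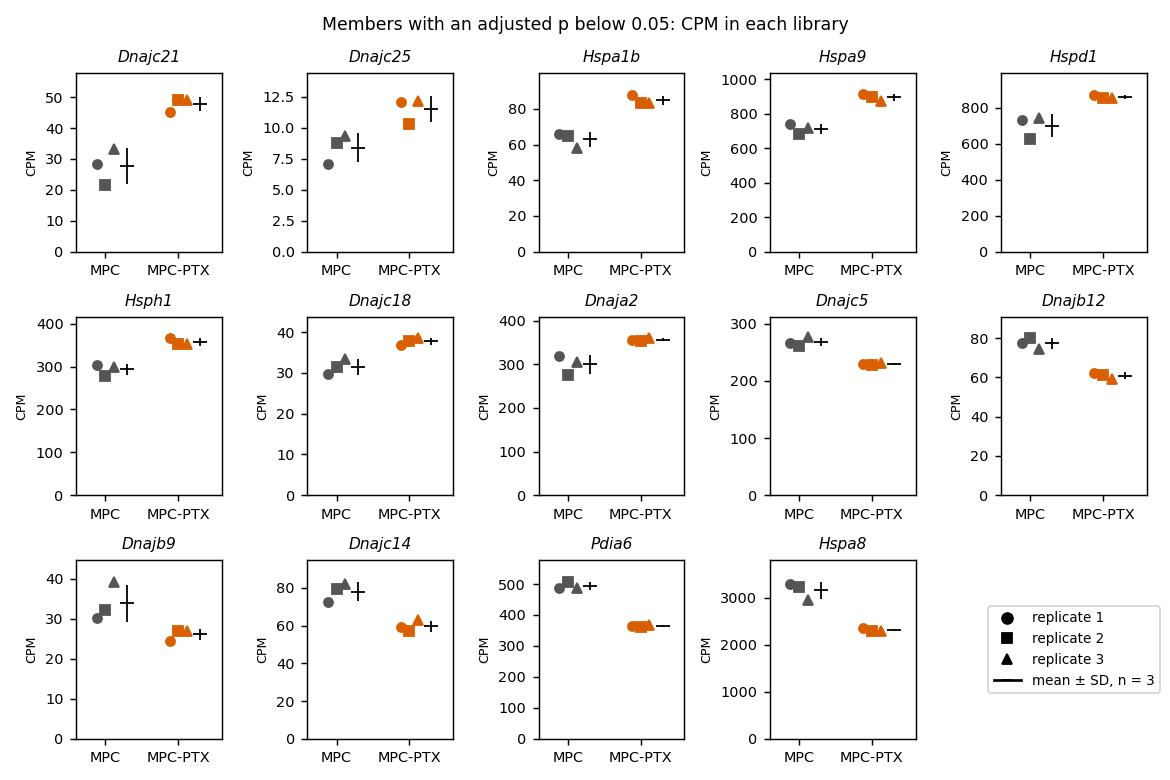
CPM in each library is plotted for the 14 members with an adjusted p below 0.05, ordered from the largest rise to the largest fall, with the mean ± SD of 3 libraries beside the points and every axis starting at 0. The 2 lines do not overlap in any of the 14 panels, and the MPC points are more spread than the MPC-PTX points.

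Of the 4 disulfide isomerase genes tested, 1 was lower in the uncorrected fit with all libraries. Pdia6, an isomerase of the ER lumen, had 488, 508 and 486 CPM in MPC and 365, 361 and 367 CPM in MPC-PTX. Its log2 fold change was -0.44 (standard error 0.05, adjusted p = 0.0011), the lowest adjusted p of any member, and the level fell by 26.2%. Pdia6 lies at chr12:17266545-17284770 and overlaps Atp6v1c2 on the opposite strand, which matters if strand was not used in counting. Pdia3, the isomerase that works with calnexin and calreticulin, had 789, 904 and 975 CPM in MPC and 803, 788 and 790 CPM in MPC-PTX, with overlap (log2 fold change -0.16, adjusted p = 0.189). Pdia3 did pass as lower with the GC content and length correction, with that correction and a replicate block, and without MPC replicate 1. In those settings 41.8%, 42.0% and 36.0% of all genes passed. Pdia4, with 219, 244 and 222 CPM against 218, 216 and 219 CPM, differed by a log2 fold change of -0.07 (adjusted p = 0.436). Pdia5, a rarer isomerase, had a log2 fold change of 0.27 and did not pass.

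The lectin chaperones, which hold glycoproteins until they are folded, did not pass the test. Calr (calreticulin) had 1532, 1557 and 1386 CPM against 1565, 1575 and 1529.52 CPM (log2 fold change 0.06, adjusted p = 0.533). Canx (calnexin) had 655, 687 and 804 CPM against 853, 852 and 873 CPM, which do not overlap, with a log2 fold change of 0.26 and an adjusted p of 0.054. Canx passed without MPC replicate 3 (0.30, adjusted p = 0.000376), while the GC content and length correction brought it to 0.13 (adjusted p = 0.245).

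Members that share a promoter element of the unfolded protein response are shown next, since they did not move together. The ER stress response element, to which ATF6 binds with NF-Y, was searched as CCAAT and CCACG with 9 bases of any kind between them, in the same windows and on both strands. It was found in 6 of 59 tested members (10.2%) and in 0.159% of tested genes, and in 0.113% of all promoter entries. Each line gives the gene and the sequence, with the fixed letters in capitals, on the strand on which the element reads in this order.
Hspa5, chr2:34772020-34772048, plus strand: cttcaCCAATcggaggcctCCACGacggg
Pdia6, chr12:17266471-17266529, plus strand: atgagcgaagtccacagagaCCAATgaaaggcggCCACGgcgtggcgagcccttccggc
Calr, chr8:84847055-84847113, plus strand: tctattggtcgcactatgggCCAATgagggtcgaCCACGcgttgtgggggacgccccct
Canx, chr11:50325780-50325838, minus strand: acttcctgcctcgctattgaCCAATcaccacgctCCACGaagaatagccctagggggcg
Dnajc3, chr14:118937807-118937865, plus strand: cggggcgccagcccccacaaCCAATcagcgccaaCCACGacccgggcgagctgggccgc
Hsp90b1, chr10:86705618-86705676, minus strand: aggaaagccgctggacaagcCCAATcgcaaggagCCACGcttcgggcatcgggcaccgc
Hsp90b1, chr10:86705513-86705571, plus strand: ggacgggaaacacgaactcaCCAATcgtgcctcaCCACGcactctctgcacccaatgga
Of the 6 genes, Pdia6 was lower in MPC-PTX and the other 5 did not pass, with log2 fold changes from 0.01 (Hspa5) to 0.42 (Dnajc3). The shorter element TGACGTGG was found in 1 member, Dnajc25 (1.69%, against 0.871% of tested genes and 0.563% of all entries), and TGATGNAA, the core of the element that ATF4 and C/EBP proteins bind, in 1 member, Hspa14 (against 2.44% and 3.45%). No member held matches to more than 1 of these elements, and a match does not show that a factor was bound.

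None of the sensors and transcription factors passed the test in the uncorrected fit with all libraries, and 6 of 7 had positive log2 fold changes, with a median of 0.24. Of all 11795 tested genes, 6511 had positive values, and the median was 0.04. After the GC content and length correction, 3 passed, all higher: Xbp1 (0.30, adjusted p = 0.00268), Hsf1 (0.34, adjusted p = 0.00558) and Ddit3 (0.57, adjusted p = 0.0351). With that correction 41.8% of all genes passed (21.7% higher and 20.1% lower). With library size as the only scaling, Xbp1 passed (0.28, adjusted p = 0.0327). Xbp1, whose spliced form drives ER chaperone and degradation genes, had 163, 161 and 136 CPM in MPC and 180.3, 182 and 183 CPM in MPC-PTX, which do not overlap (log2 fold change 0.25, standard error 0.08, adjusted p = 0.0585). A count per gene does not tell its spliced from its unspliced form. Atf6, the sensor that is cut in the Golgi, had 79.1, 80.2 and 99.6 CPM against 102, 103 and 100.3 CPM (log2 fold change 0.24, adjusted p = 0.111). Ern1, which encodes IRE1, had 54.5, 73.002 and 80.2 CPM against 82.4, 76.4 and 79.8 CPM (0.20, adjusted p = 0.313), and Eif2ak3, which encodes PERK, had 27.1, 32.6 and 34.5 CPM against 28.9, 28.5 and 30.7 CPM (-0.10, adjusted p = 0.527). Hsf1 had 51.4, 42.8 and 41.5 CPM against 56.1, 56.6 and 49.5 CPM (0.26, adjusted p = 0.111).

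Atf4, the transcription factor of the integrated stress response, split the MPC libraries. It had 301, 189 and 175 CPM in MPC and 270.004, 266 and 248 CPM in MPC-PTX. MPC replicate 1 lay above every MPC-PTX library and the other 2 lay below them, and the log2 fold change was 0.24 (standard error 0.20, adjusted p = 0.411). Without MPC replicate 1 it was 0.52 (adjusted p = 0.00149), and without MPC replicate 3 it was 0.04. Hsf1 (0.36, adjusted p = 0.0164) and Xbp1 (0.29, adjusted p = 0.0283) also passed without MPC replicate 1, where 36.0% of all genes did, and Atf6 passed without MPC replicate 3 (0.30, adjusted p = 0.00113). Ddit3 (CHOP), which ATF4 induces, had 117, 112 and 129 counts in MPC and 232, 197 and 104 in MPC-PTX, with MPC-PTX replicate 3 among the MPC libraries in CPM (log2 fold change 0.46, adjusted p = 0.0979). Its second record had no count in any library.

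Without MPC replicate 3 more of the family passed. Of 75 members then tested, 21 were higher and 12 lower (44.0%), against 52.5% of all genes (25.4% and 27.1%), and all 14 members called with every library were among them in the same direction. Of the members gained, 13 were higher and 6 lower. A loess correction for GC content and length, with all 6 libraries kept, gave 16 higher and 8 lower members (32.4%, against 41.8% of all genes, 21.7% higher and 20.1% lower). GC content also divided the calls made with all libraries: of 37 members below the median GC content of 48.5%, 7 were higher and 1 was lower, and of 37 at or above it, 1 was higher and 5 were lower. Over all genes, the same division gave 13.6% higher and 11.7% lower below it and 14.4% and 18.0% above. The part of GC content in these results was not tested further. In all 14 other settings, which are listed among the methods, Dnajc21, Hspa1b, Hspa8, Hspa9 and Pdia6 kept an adjusted p below 0.05, and all 14 called members kept their direction.

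**Figure D5:**
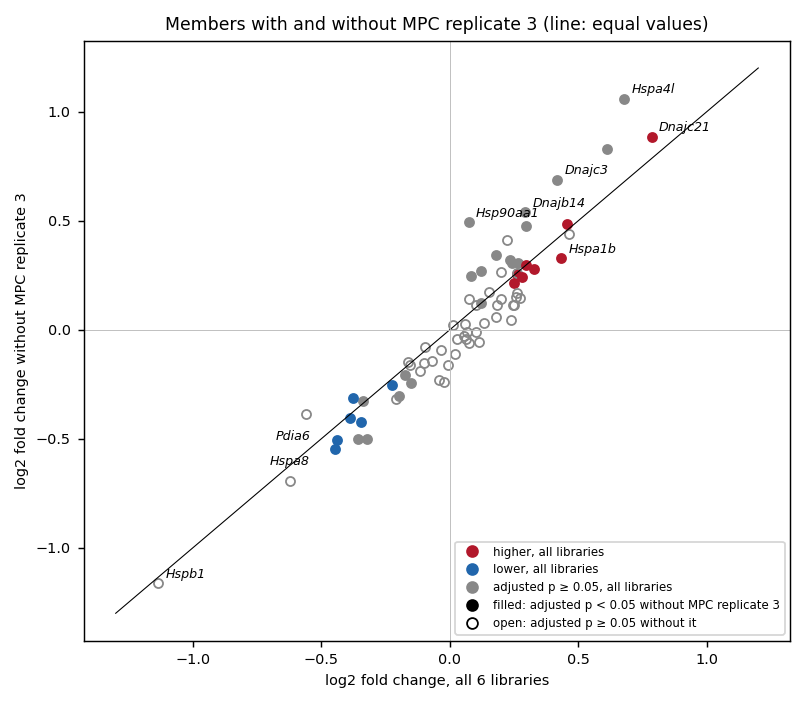
The log2 fold change of each member with all 6 libraries (x axis) is plotted against the value without MPC replicate 3 (y axis), with a line of equal values. Filled points had an adjusted p below 0.05 without that library; Hspa4l (0.68 against 1.06), Dnajc3 (0.42 against 0.69) and Hsp90aa1 (0.07 against 0.49) lie farthest above the line.

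Other genes of these pathways were read from 3 lists that exclude the members. Among ER folding and ER-associated degradation genes, 8 of 41 tested were higher and 1 was lower, with a median log2 fold change of 0.05, where 14.1% of all genes were higher and 15.6% lower. Without 1 of the MPC-PTX libraries 4 to 5 were higher. Fkbp14, an ER prolyl isomerase, rose at a low level from 0.27, 0.31 and 0.48 CPM to 1.28, 1.71 and 1.31 CPM (log2 fold change 2.00, adjusted p = 0.00373). Other higher genes included Ero1a, the oxidase that recharges disulfide isomerases (0.74, adjusted p = 0.00524), Herpud1, a degradation factor (0.68), Txndc16, Erp44, Hyou1, the HSP110 protein of the ER (0.29, adjusted p = 0.00733), and Uggt1. Os9, a lectin of ER-associated degradation, was lower (-0.54, adjusted p = 0.00161). Genes of this list other than Fkbp14 were named after their values had been seen. Without MPC replicate 3 the counts were 11 higher and 13 lower, where 25.4% and 27.1% of all genes were.

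Among other genes of the unfolded protein and integrated stress responses, 7 of 40 tested were higher and 5 lower (14.1% and 15.6% of all genes), with a median log2 fold change of 0.23. Higher genes numbered 3 to 5 without 1 of the MPC-PTX libraries and 12 with the GC content and length correction. Slc7a11, the cystine transporter, rose from 25.3, 15.3 and 36.8 CPM to 114, 130.4 and 129 CPM (log2 fold change 2.27, adjusted p = 0.00182). Stc2, a secreted glycoprotein, rose from 60.2, 56.9 and 52.6 CPM to 154, 155 and 147 CPM (1.43, adjusted p = 2.97e-05). Gdf15, a stress-induced cytokine, rose at a low level from 0.37, 0.46 and 0.14 CPM to 1.11, 1.35 and 1.01 CPM (1.83, adjusted p = 0.0123). Cebpb, Cebpg, Sesn2 and Vldlr were also higher, and Ddit4 (-0.86), Creb3l4, Wfs1, Nupr1 and Eif2s1 were lower, all named after their values had been seen. This list was the one most changed by MPC replicate 1: without it 24 of 40 genes were higher and 6 lower, where 18.3% and 17.7% of all genes were, and without MPC replicate 3 the counts were 10 and 7 (25.4% and 27.1% of all genes).

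Among other cytosolic and mitochondrial chaperones and heat shock factors, 4 of 51 tested were higher and 7 lower (14.1% and 15.6% of all genes), with a median log2 fold change of -0.05. No member of the list that passed had a log2 fold change beyond 1. Those higher were Fkbp5, an HSP90 co-chaperone (0.87), Clpb, Bag4 and Lonp1, the last 2 a regulator of HSP70 and the mitochondrial matrix protease. Those lower included the HSP90 co-chaperones Cdc37 (-0.38), Ahsa1, Ptges3 and Sugt1, the prefoldin subunit Pfdn2, Cct2 of the cytosolic chaperonin and Trap1, the mitochondrial HSP90. These genes were named after their values had been seen. Without MPC replicate 3 the counts were 5 higher and 20 lower (25.4% and 27.1% of all genes), and all 7 lower calls were lost when any 1 MPC-PTX library was left out.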

How the data were processed

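The authors prepared poly-A selected RNA libraries, filtered the reads with fastp 0.22.0 (from the submitters' processing notes), mapped them with HISAT2 and deposited raw read counts per gene, not normalised and not pooled. The genome release, annotation, counting tool and use of strand are not given in the sources used here. The sample tables held the same values as the series table in all 6 libraries, and no row lacked a gene name.

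From the deposited counts, genes were filtered with filterByExpr (minimum count 10), scaled with TMM and tested across all 11795 genes kept with edgeR 4.0.16 (quasi-likelihood test with robust estimation, R 4.3.3), MPC-PTX against MPC, with Benjamini-Hochberg adjustment over all genes tested. Standard errors are the log2 fold change divided by the square root of F. CPM were computed from TMM-scaled library sizes. GENCODE M21 (GRCm38), matched by Ensembl identifier, gave positions, transcript length and GC content, and promoter sequences from RefSeq (GRCm38.p6), which matched 72 member names and left 17 without an entry. The 14 other settings were DESeq2 1.42.0, DESeq2 size factors, library size alone, low counts left unfiltered, a minimum of 10 counts in each library, a replicate block, a loess correction for GC content and length (span 0.3), both of these, and each library left out in turn. The code was checked on simulated data with the same spread in both lines, which the real libraries do not have. There, 58.95% of genes given a log2 fold change of 0.5 in size were called, and 100% of those given 1.5.

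The members, lists and settings were chosen with earlier results of these data known. Named genes were 32 core members whatever they showed, every other member with an adjusted p below 0.05 and a log2 fold change beyond 0.5, and of each other list up to 6 genes with an adjusted p below 0.05 and a log2 fold change beyond 1. Too few counts left 16 of the 90 records untested.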

Additional observations from a re-analysis of the deposited data

How the results depend on the processing

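All 14 called members kept their direction in every other setting, and 5 kept an adjusted p below 0.05 in all of them. The main counts were 8 higher and 6 lower members, where 29.7% of all genes passed. Higher members numbered 13 with library size alone, 16 with the GC content and length correction and 16 with that correction and the replicate block; over the libraries left out in turn they ranged from 3 to 21, and lower members from 2 to 12. The share of all genes called moved with them: 30.7% with library size alone, 41.8% with the correction, 42.0% with it and the block, and 16.0 to 52.5% over the libraries left out. Scaling by library size gave 13 higher and 5 lower members, and DESeq2 size factors 6 and 8. By the study's rule, higher members ranged from 0 to 1 and lower members from 0 to 1 over the libraries left out, and lower members numbered 2 without the filter on low counts, 0 with at least 10 counts in every library and 0 with DESeq2. The block alone gave 10 higher and 6 lower members. It raised the higher genes among the other unfolded protein and integrated stress response genes from 7 to 14. Whether the replicate numbers pair the samples is not known, and the correlations do not settle it. Same-numbered deviations correlated at 0.15, -0.02 and 0.17, and MPC replicate 2 correlated with MPC-PTX replicate 1 at 0.15.

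Some members that were not called changed sign, with adjusted p of 0.207 or more each time. Hspa5 turned to -0.0213 with DESeq2 size factors and with DESeq2, to -0.0185 with at least 10 counts in every library, to -0.0058 with the GC content and length correction and to -0.0056 with that correction and the block. Hspe1 turned to -0.0152 with DESeq2 size factors and with DESeq2 and to -0.0135 with at least 10 counts. Dnaja1 turned to -0.0486 with the correction and to -0.0475 with it and the block. Dnajb11 turned to 0.0019 with library size alone, to 0.0209 with the correction and to 0.0223 with it and the block. Over the libraries left out in turn, the log2 fold change ran from -0.0477 to 0.0226 for Hspa5, from -0.112 to 0.136 for Hspe1, from -0.118 to 0.493 for Hsp90aa1, from -0.011 to 0.166 for Hsp90ab1, from -0.0253 to 0.244 for Hsp90b1 and from -0.0411 to 0.0922 for Calr. The cause was not tested. Members with under 20 counts a library, such as Hspb1, are limited by depth.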

Other observations

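In Trib3, Mthfd2, Slc7a5 and Ppp1r15a, 4 genes that ATF4 is known to induce, MPC replicate 1 stood apart, as it did for Atf4 itself. They were picked once their values had been seen. It also stood apart in further genes of the same list. Among these, Asns had 331, 156 and 133 CPM in MPC and Psat1 had 485, 236 and 213 CPM. Psph had 116, 55.4 and 47.4 CPM and Chac1 had 24.01, 7.89 and 5.96 CPM. Other genes that ATF4 induces did not show it: Ddit3 had 6.22, 5.77 and 6.198 CPM in MPC, Slc7a11 had 25.3, 15.3 and 36.8 CPM, Cebpg had 54.03, 45.5 and 64.9 CPM and Stc2 had 60.2, 56.9 and 52.6 CPM. Trib3, a pseudokinase, had 57.8, 16.1 and 12.6 CPM in MPC and 64.3, 64.5 and 62.6 CPM in MPC-PTX. Mthfd2, a mitochondrial folate enzyme, had 132, 60.3 and 54.8 CPM against 147, 141 and 138 CPM. Slc7a5, an amino acid transporter, had 262, 137 and 126 CPM against 305, 289 and 278 CPM. Ppp1r15a, which restores translation after stress, had 43.99, 22.6 and 21.4 CPM against 47.2, 45.2 and 44.9 CPM. In each of the 4 genes MPC replicate 1 lay close to the MPC-PTX libraries and the other 2 MPC libraries well below them. None passed with all libraries, with adjusted p of 0.159 for Trib3, 0.114 for Mthfd2, 0.0863 for Slc7a5 and 0.122 for Ppp1r15a. Without MPC replicate 1 their log2 fold changes were 2.15, 1.30, 1.14 and 1.06, each with an adjusted p below 0.05, where 36.0% of all genes passed. Since the genes were picked for where MPC replicate 1 lay, leaving it out had to widen their difference. Without MPC replicate 3 the values were 0.75, 0.52, 0.50 and 0.41, none of which passed, where 52.5% of all genes did. What sets MPC replicate 1 apart in these genes was not tested.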
